A study of Mus musculus with 4 samples.

Results

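The enzymes that take apart extracellular matrix, and the proteins that hold them in check, were followed through the chromatin of cultured mouse mesenchymal stem cells (MSCs) from old and young animals. Included were the autosomal ATAC-seq peaks that overlap a protein-coding gene named Mmp, Adamts or Timp2 to Timp4 in the GENCODE vM21 annotation, or lie upstream of its start by at most 5 kb. This gave 249 of the 117282 peaks in the study's common peak list on mm10 (GRCm38), of which 114745 are autosomal. They belong to 40 of 44 genes, namely 22 Mmp, 19 Adamts and 3 Timp genes. The old group came from mice of 18 to 22 months and the young group from mice of 3 to 5 months. Each group has 2 samples, and all 4 were grown at 2% O2 in αMEM with fetal bovine serum and penicillin/streptomycin, with no further treatment named in the labels. ATAC-seq tags open DNA with a transposase, so that a high value at a peak marks accessible chromatin and not the amount of an enzyme. Depth was read from recovered counts, each value divided by the step of its sample. Over all peaks these counts add up to 12527509 for old replicate 1 and 16364973 for old replicate 2. For young replicates 1 and 2 they add up to 16259095 and 18493628.

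Matrix metalloproteinases (Mmp) are zinc enzymes that are made as inactive precursors and, once activated, cleave collagens, proteoglycans and other matrix proteins outside the cell or at its surface. Adamts enzymes are secreted relatives with thrombospondin repeats, and among them are aggrecanases, which cut cartilage proteoglycans, and the enzymes that trim procollagen before fibrils form. Timp proteins bind the active site of these enzymes and block it, and stromal cells of bone marrow and bone use the balance of enzyme and inhibitor when they remodel the matrix around them.

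The deposited score of a peak, called its value here, is a count per library total that was not divided by peak length, so levels of different peaks are compared only per kb of peak width. For the comparison of age groups, values were divided by an RLE factor for each sample (its median ratio to the geometric mean of all samples), and fold changes are differences of log2(value + 1), old minus young. By this scaling the typical peak has a fold change near 0. A peak counted as called when its adjusted p in limma, over all peaks, was under 0.01. The MSC label was checked on promoter peaks, which lie at most 1 kb from where a protein-coding transcript starts. All 10 markers of mesenchymal stem or stromal cells had one. Col1a2, with a peak of 48700 bases, contributed most to their sum, and per kb Col1a1 was highest with 27.4. Their summed value was 2859 and 4346 in the old samples, replicate 1 given first here and below, and 3622 and 4030 in the young ones. After scaling the old sums, 3519 and 4316, lay above the young ones, 3395 and 3518, by a narrow margin, and the part of this in the age comparison was not tested. Of 6 blood cell markers 3 had a promoter peak, summing to 96.2 and 158 in the old samples against 155 and 160 in the young ones, Csf1r contributing most. Ptprc, Itgam and Adgre1, which define blood cells and macrophages, had none. Endothelial markers had promoter peaks at 3 of 4 genes, Tek contributing most. Their scaled sums, 76.6 and 78.4 in the old samples, lay below those of the young ones, 87.9 and 85.2. The peaks differed in direction, with old below young at Tek (-0.73) and above at Kdr (0.29) and a Pecam1 peak (0.65). The other Pecam1 peak overlapped (-0.050). Adipocyte markers had promoter peaks at 1 of 2 genes. Their scaled sums overlapped, with 69.3 and 93.3 in the old and 62.7 and 69.7 in the young samples. The part of either cell type in the age comparison was not tested.

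The peaks were spread unevenly over the genes. Adamts12 had 25, Adamts2 24, Adamts17 21, Adamts16 16, Adamts3 13, and Adamts6 and Adamts9 12 each, while the median gene had 4. Mmp7, Mmp10, Mmp12 and Mmp21 had no peak. A promoter peak was present at 36 genes, and Mmp8, Mmp9, Mmp20 and Adamts19 had peaks elsewhere but none at a promoter. By place in the gene, 150 of the 249 peaks were intronic, 41 overlapped coding exons, 39 lay at the gene's own promoter, 10 lay further upstream and 9 overlapped untranslated exon sequence. Of the 249, 7 that lay away from their own gene's promoter were within 1 kb of the start of a different gene, such as the Adamts13 peak at the end of the gene that is also the promoter of Cacfd1. Peaks wider than 5000 bases made up 10.0% of the set and 4.53% of all autosomal peaks. The median peak was 1300 bases wide with 13.1 per kb, against 1200 bases and 13.4 per kb over all autosomal peaks. The highest level per kb was at a Timp2 upstream peak with 53.0. It was followed by an Adamts16 intron peak with 51.5, an Mmp2 exon peak with 47.0, another Adamts16 intron peak with 46.7 and the Adamts13 peak shared with Cacfd1 with 46.6.

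Between old and young MSCs, no protease or inhibitor peak was called in either direction. limma called 0 of 249 lower and 0 higher at an adjusted p of 0.01, where 0.0307% of all peaks were called lower and 0.0256% higher. An unadjusted p under 0.05 was reached by 32 peaks of the set (12.9%, against 16.4% of all peaks), 22 lower (8.84%, against 8.87%) and 10 higher (4.02%, against 7.49%). limma-voom on recovered counts also called 0, where 0.0810% of all peaks were lower and 0.0418% higher. At an adjusted p of 0.05, 2 peaks were lower (0.803%, against 0.771% of all peaks) and 0 higher (against 0.351%). Both old samples lay below both young samples at 67 peaks, or 26.9%, where the share over all peaks was 24.2%. They lay above at 40 peaks, or 16.1%, against 23.2%. The median log2 fold change was -0.059 over the set and 0.0011 over all peaks, and 59.4% of the set had a lower mean in old cells, against 49.9% of all peaks. Adamts peaks were lower in 119 of 191 cases with a median of -0.081, Timp peaks in 6 of 9 with a median of -0.063, and Mmp peaks in 23 of 49 with a median of 0.056, which was -0.23 on values as deposited, where all peaks had a median of -0.27. The call counts rested on the samples and the scaling used. limma called 14 lower and 3 higher without old replicate 1 (5.62% and 1.20%, against 5.52% and 3.31% of all peaks), and 1 and 1 without old replicate 2 (0.402% each, against 1.00% and 0.428%). Old replicate 2, alone in its group in the former fit, had a mitochondrial share of 6.52%, against 15.7% in old replicate 1 and 13.5% and 14.5% in the young samples, and the part of this in the counts was not tested. The calls were 3 and 0 on values as deposited (1.20% lower, against 1.14%) and 3 and 0 with replicate number as a block (1.20% lower, against 0.773%). Those without old replicate 1 were 3 lower peaks at Adamts16, 2 each at Adamts19 and Timp3, 1 each at Mmp8, Mmp16, Adamts1, Adamts2, Adamts5, Adamts6 and Adamts20, and higher peaks at Mmp24, Adamts14 and Timp2. Without old replicate 2 they were a lower peak at Adamts19 and a higher one at Adamts7.

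Before RLE scaling, the summed value of the set was 11053 and 13680 for the old and 14966 and 15777 for the young samples. Both old sums lay below both young sums, a log2 ratio of the means of -0.31 (exact permutation test over samples, two-sided p = 0.33, which is as small as this design allows). All autosomal peaks together gave a ratio of -0.30. As a share of them, the set held 0.304% and 0.295% in the old samples and 0.306% and 0.299% in the young ones, which overlap. Timp3 contributed 11.1% of the set's value, Timp2 11.0%, Adamts2 10.1%, Adamts16 7.78% and Adamts12 6.17%. With the RLE-scaled peaks of each gene added up, old samples lay below young ones at 9 of 40 genes (22.5%, against 24.4% of all autosomal protein-coding genes with a peak): Adamts1, Adamts2, Adamts9, Adamts12, Adamts17, Adamts19, Adamts20, Mmp8 and Mmp19. They lay above at Adamts15, Mmp15, Mmp25 and Timp2 (10.0%, against 16.7%), and overlapped at the other 27 (67.5%, against 58.9%).

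Collagenases open the triple helix of fibrillar collagen, and they had few peaks. Mmp13, the main collagenase of mouse bone and cartilage, had 1 peak, at its promoter (chr9:7271501-7273000), with 16.8 and 12.6 in the old samples and 21.6 and 27.5 in the young ones. Both old values were below both young values as deposited, but after RLE scaling old replicate 1 reached the young range. The log2 fold change was -0.43 (SE 0.28, limma adjusted p = 0.471), and it was -0.78 without old replicate 1 and -0.081 without old replicate 2. Promoter peaks of 3 of 3 chondrocyte markers summed to 304 and 421 in the old and 421 and 412 in the young samples, Col2a1 contributing most, and their part in the Mmp13 values was not tested. Mmp8, the collagenase stored in neutrophil granules, had an upstream peak (chr9:7553501-7554900, named after its values were seen) with 11.5 and 9.21 in the old samples and 19.1 and 25.2 in the young ones. Its groups did not overlap with or without scaling, the log2 fold change was -0.75 (SE 0.29, limma adjusted p = 0.206), and the smaller exon peak of the gene had the same order. The upstream peak was called without old replicate 1, at -1.05. Neutrophil markers had promoter peaks at 4 of 5 genes, with none at Elane. Their sums were 373 and 428 in the old and 471 and 552 in the young samples, Camp contributing most. After scaling these sums overlapped, with 459 and 425 in the old and 442 and 482 in the young samples, with old below young at Ly6g and S100a8 (-0.58 and -0.57), above at Mpo (0.76), and overlap at Camp (-0.15). Their part in the Mmp8 values was not tested. Mmp1b, a rodent relative of interstitial collagenase, had only a promoter peak near the floor of detection, with 4.20 and 2.46 in the old and 5.66 and 3.06 in the young samples, where 3 counts give 0.921 to 1.06.

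These collagenases sit in a cluster on chromosome 9 (chr9:7272514-7699585) of 9 Mmp genes, of which 6 had a peak, 9 peaks in all. Mmp3, a stromelysin that cleaves proteoglycans and activates procollagenases, had its single peak over the promoter (chr9:7445201-7446100). It measured 21.7 and 20.3 in the old and 19.1 and 25.2 in the young samples, which overlap, and its log2 fold change was 0.21 (SE 0.26, limma adjusted p = 0.730), or -0.062 as deposited. Mmp27 had a promoter and an intron peak with log2 fold changes of -0.17 and -0.13. Mmp20, the enamel protease, had 2 intron peaks at 0.37 and 0.27. Mmp7, Mmp10 and Mmp12, whose products are matrilysin, stromelysin 2 and macrophage elastase, completed the cluster without a peak.

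Mmp2, or gelatinase A, which degrades denatured collagen and basement membrane collagen, was among the more accessible genes per kb. At its promoter (chr8:92825201-92829000) the values were 88.5 and 92.1 in the old and 135 and 124 in the young samples. The groups were apart as deposited and overlapped after RLE scaling, with a log2 fold change of -0.23 (SE 0.17, limma adjusted p = 0.551). The exon peak of Mmp2 (chr8:92845801-92851700) had 225 and 288 in the old and 282 and 314 in the young samples. These values overlap, while the scaled old values lie narrowly above the young ones, at a log2 fold change of 0.064 (SE 0.13, limma adjusted p = 0.852), or -0.22 as deposited. Mmp9, gelatinase B, is typical of osteoclasts and neutrophils, and its strongest peak was in a coding exon (chr2:164953101-164953700), with 8.39 and 15.7 in the old and 15.2 and 13.6 in the young samples. The old samples spanned the young ones, and the log2 fold change was -0.034 (SE 0.30, limma adjusted p = 0.970). Osteoclast markers had promoter peaks at 2 of 4 genes, with none at Calcr and Ocstamp. They summed to 38.5 and 54.1 in the old and 55.2 and 36.4 in the young samples, Acp5 contributing most, and their part in the Mmp9 values was not tested. The other 4 gelatinase peaks had log2 fold changes from -0.12 to 0.22.

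Membrane-type enzymes act at the cell surface, and Mmp14 is the one that activates the Mmp2 precursor together with Timp2. The Mmp14 promoter peak (chr14:54429601-54437100) held 228 and 340 in the old and 320 and 334 in the young samples. Old replicate 1 was the low sample and old replicate 2 the high one, so that the groups overlapped. The log2 fold change was 0.056 after scaling (SE 0.13, limma adjusted p = 0.877) and -0.23 as deposited. At 40.7 per kb it stood above the median promoter peak of the set, 22.5 per kb. Mmp15 had positive log2 fold changes at 4 of 4 peaks, from 0.082 to 0.91, and at 3 of 4 on values as deposited. Its intron peak with the larger difference (chr8:95362201-95362800, named after its values were seen) had 5.94 and 7.99 in the old and 4.60 and 3.40 in the young samples, with an adjusted p of 0.232 in limma. Mmp25, anchored to the membrane by a lipid, was positive at both of its peaks, at 0.11 and 0.54, and at 1 of them as deposited. Mmp24 was positive at 2 of 3 peaks (1 as deposited), Mmp16 at 2 of 6 (0 as deposited) and Mmp17 at 1 of 4 both ways. An Mmp16 intron peak, named after its values were seen, had the lowest value of the membrane-type group, -1.03, but old replicate 1 lay in the young range there after scaling, and without it the value was -2.03 and called. In all, 9 of 22 membrane-type peaks were lower in old cells, with a median of 0.074, while on values as deposited 16 were lower, with a median of -0.21.

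Stromelysin 3, Mmp11, differs from its namesakes in being activated inside the cell by furin. Its strongest promoter peak (chr10:75920401-75925000) covers the end of the gene. It counts as a promoter peak through a transcript start inside the gene, 677 bases away. The values were 78.7 and 109 in the old and 105 and 104 in the young samples. Old replicate 1 was the low sample as deposited, and the groups overlapped with and without scaling. The log2 fold change was 0.12 after scaling (SE 0.17, limma adjusted p = 0.785) and -0.17 as deposited. The other Mmp11 peaks, both also promoter peaks and nearer the beginning of the gene, lay at -0.073 and -0.063. Mmp19 had 1 peak, at its promoter (chr10:128790401-128791900), with 31.5 and 40.8 in the old and 57.7 and 55.1 in the young samples. Here the old samples were below the young ones with and without scaling, and the log2 fold change was -0.36 (SE 0.21, limma adjusted p = 0.412). Mmp23, a membrane-bound enzyme of unusual domain structure, lay inside a peak 9400 bases wide (chr4:155648001-155657400), with 177 and 283 in the old and 256 and 241 in the young samples. The groups overlapped with and without scaling, at a log2 fold change of 0.14 after scaling (SE 0.15, limma adjusted p = 0.694) and -0.15 as deposited. Mmp28, or epilysin, had 6 peaks from -0.17 to 0.42. It lies on chromosome 11, whose peaks stood 0.18 (log2, median) above the young mean in old replicate 2 and 0.021 above it in old replicate 1 after scaling. The part of this shift in the Mmp28 values was not tested.

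Of the 49 peaks at the 7 genes of the aggrecanase group, 30 were lower in old cells, with a median log2 fold change of -0.12. Adamts5, the main aggrecanase of mouse cartilage, had the lowest fold change among peaks of the set with a mean value of at least 10. That peak covers untranslated exon sequence at the far end of the gene (chr16:85855901-85857700), 44128 bases from the start, and had 8.74 and 3.99 in the old and 19.8 and 27.5 in the young samples. Both old samples were far below both young ones, and the log2 fold change was -1.54 (SE 0.36, limma adjusted p = 0.0453). It passed an adjusted p of 0.01 on values as deposited, with the replicate block and without old replicate 1, where the log2 fold change was -2.17. It missed 0.05 without old replicate 2, at -0.90, without young replicate 1 or young replicate 2 (where 0.0230% and 0.0188% of all peaks passed it), under equal total signal and with a pseudocount of 0.1. The Adamts5 promoter (chr16:85895901-85902500) was another matter, with 155 and 204 in the old and 210 and 230 in the young samples. After scaling these overlapped, with a log2 fold change of -0.016 (SE 0.14, limma adjusted p = 0.971).

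Its neighbour Adamts1, which cuts versican and aggrecan, is covered whole by a peak of 14600 bases (chr16:85790701-85805300). The values were 492 and 593 in the old and 735 and 822 in the young samples, at 45.2 per kb. Old samples lay below young samples with and without scaling, and the log2 fold change was -0.24 (SE 0.11, limma adjusted p = 0.277). Without old replicate 1 it was -0.26 and passed an adjusted p of 0.01, and without old replicate 2 it was -0.21 and did not. At the promoter peak of Adamts4, an aggrecanase induced by inflammatory signals (chr1:171245801-171253200), the values were 252 and 356 in the old and 367 and 381 in the young samples. The groups were apart as deposited and overlapped after scaling, at -0.032 (SE 0.13, limma adjusted p = 0.930). Adamts9, which acts on versican, was lower at 8 of 12 peaks, from -0.68 to 0.47, and Adamts20 at 9 of 11, from -1.22 to 0.41. Both had old below young in their gene sums. Adamts8 was lower at 4 of 7 peaks. Adamts15 went the other way, with positive values at 5 of 5 peaks, from 0.056 to 0.39 (3 of 5 as deposited), and scaled gene sums of 73.2 and 63.4 in the old against 52.4 and 55.8 in the young samples.

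Adamts2, Adamts3 and Adamts14 remove the amino-terminal propeptide of fibrillar procollagens, and 24 of their 44 peaks were lower in old cells, with a median of -0.041. Adamts2, the main enzyme for procollagen I, had 83.2 and 125 at its promoter (chr11:50601001-50605100) in the old and 128 and 120 in the young samples. These overlap, at a log2 fold change of 0.0053 (SE 0.17, limma adjusted p = 0.993), or -0.28 as deposited. An intron peak of Adamts2 (chr11:50629101-50630700) had 11.9 and 11.1 in the old and 11.0 and 7.14 in the young samples. The old values lie above the young ones by a small margin, at 0.60 (SE 0.33, limma adjusted p = 0.376). Over its 24 peaks Adamts2 ranged from -0.65 to 1.05. It too lies on chromosome 11, and whether the shift of old replicate 2 has a part in these values was not tested. Adamts14 had an intron peak (chr10:61258001-61258800) with 9.09 and 24.3 in the old and 10.3 and 11.6 in the young samples. Only old replicate 2 was high, the groups overlapped as deposited, and the log2 fold change was 0.69 (SE 0.33, limma adjusted p = 0.311). Without old replicate 1 it was 1.21 and passed an adjusted p of 0.01, and without old replicate 2 it was 0.18. Of the 7 Adamts14 peaks 5 were positive (4 as deposited), from -0.24 to 0.69, and of the 13 Adamts3 peaks 5 were, from -0.55 to 0.57.

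Adamts7 and Adamts12 cleave cartilage oligomeric matrix protein. Across the 284 kb of Adamts12, opposite differences lay a few kb apart in one stretch of introns. The peak at chr15:11104701-11105500 had 8.04 and 11.7 in the old and 22.3 and 24.5 in the young samples. The old samples were well below the young ones, with a log2 fold change of -0.92 (SE 0.27, limma adjusted p = 0.0970). The peak at chr15:11098201-11099400 had 10.1 and 16.0 in the old and 8.49 and 7.14 in the young samples. There the old samples were above the young ones, with 0.90 (SE 0.31, limma adjusted p = 0.151). The lowest fold change of the whole set, -1.70, was at a weak peak of 200 bases that adjoins the lower one (named after its values were seen), with 0 and 0.307 in the old and 4.25 and 2.04 in the young samples, the old values being under 3 counts, where the fold change depends on the pseudocount. At the Adamts12 promoter (chr15:11062701-11068300) the values were 113 and 154 in the old and 165 and 161 in the young samples. After scaling these overlapped, at -0.022 (SE 0.16, limma adjusted p = 0.962). Of its 25 peaks 18 were lower in old cells. Adamts7 was lower at 2 of 5 peaks, from -0.54 to 0.20, and at 5 of 5 on values as deposited.

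The other Adamts genes had 68 peaks, 45 of them lower in old cells, with a median of -0.083. Adamts19, a gene of heart valve development, had the lowest adjusted p of the set. Its coding exon peak (chr18:58889701-58890400) had 5.59 and 6.45 in the old and 21.2 and 21.8 in the young samples. Replicates were close and the groups far apart, with a log2 fold change of -1.42 (SE 0.29, limma adjusted p = 0.0281). It passed an adjusted p of 0.01 on values as deposited, with the replicate block, and without old replicate 1 (-1.48) or old replicate 2 (-1.37), and missed 0.05 without either young sample, where few peaks of the whole list passed it. At the other 3 peaks of Adamts19 old lay below young too, from -0.76 to -0.51, and its scaled sums were 27.5 and 16.5 in the old against 43.1 and 48.4 in the young samples.

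Adamts16, which can cleave fibronectin, had 2 of the 5 peaks with the highest level per kb, and none of its peaks was called. An intron peak near its start (chr13:70832801-70833600) had 6.64 and 6.76 in the old and 17.7 and 17.7 in the young samples. Old samples lay below young ones, at -1.02 (SE 0.30, limma adjusted p = 0.0946), and without old replicate 1 the value was -1.15 and passed an adjusted p of 0.01, while without old replicate 2 it was -0.88 and did not. Another intron peak (chr13:70778801-70779500) was named after its values were seen, with 4.20 and 1.84 in the old and 14.2 and 11.6 in the young samples, at -1.59 (SE 0.40, limma adjusted p = 0.0569). This was the remaining peak called on values as deposited and with the replicate block. The strong intron peak at chr13:70818401-70819800 had 63.3 and 61.4 in the old and 89.2 and 74.5 in the young samples. Scaled values overlapped there, at -0.096 (SE 0.20, limma adjusted p = 0.857). At chr13:70788201-70790800 the values were 92.0 and 102 in the old and 127 and 165 in the young samples. The old samples were the lower ones, at -0.29 (SE 0.17, limma adjusted p = 0.413). In total 11 of the 16 Adamts16 peaks were lower, and its gene sums overlapped.

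Adamts17, which acts on fibrillin microfibrils as Adamts10 does, was lower at 14 of 21 peaks. Its intron peak at chr7:67109201-67110000 had 9.09 and 10.1 in the old and 23.4 and 21.8 in the young samples. The groups were far apart relative to the replicates, at -0.88 (SE 0.27, limma adjusted p = 0.113). Adamts18 was positive at 6 of 10 peaks (5 as deposited). A coding exon peak of Adamts18 (chr8:113713501-113714400) had 14.0 and 12.9 in the old and 7.43 and 10.2 in the young samples. Old was above young, at 0.84 (SE 0.31, limma adjusted p = 0.179). The intron peak of Adamts18 at chr8:113762201-113764200 had 26.2 and 23.0 in the old and 19.1 and 19.7 in the young samples, again with old above young, at 0.60 (SE 0.26, limma adjusted p = 0.251). Adamts6 was lower at 9 of 12 peaks, from -0.54 to 0.50, and Adamts10 at 2 of 3, from -0.18 to 0.17. Adamts13, whose product cleaves von Willebrand factor, had a weak promoter peak at 0.24. Its end peak shared with Cacfd1 (chr2:27009201-27011100) had 64.0 and 94.6 in the old and 105 and 89.8 in the young samples, which overlap, at -0.033 (SE 0.19, limma adjusted p = 0.952).

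The inhibitor genes Timp2 and Timp3 lie under the widest peaks of the set. Timp3, which stays bound to the matrix and also inhibits aggrecanases, has a peak of 52200 bases over its promoter and most of the gene (chr10:86294701-86346900), a gene that lies within Syn3. It had 1119 and 1370 in the old and 1512 and 1524 in the young samples, at 26.5 per kb. The old values were the lower ones as deposited and overlapped the young ones after scaling, with a log2 fold change of -0.0051 (SE 0.089, limma adjusted p = 0.986). The remaining Timp3 peaks, over the end of the gene and named after their values were seen, were at -1.69 and -0.38 with old below young, the former a weak peak at 0 in old replicate 2. Both were called without old replicate 1, at -2.85 and -0.72. Timp2 has a peak of 41600 bases (chr11:118314801-118356400) with 624 and 958 in the old and 729 and 812 in the young samples, at 18.8 per kb. As deposited the old samples enclosed the young ones, and after scaling both lay above them, at 0.30 (SE 0.11, limma adjusted p = 0.199). Without old replicate 1 it was 0.45 and passed an adjusted p of 0.01, without old replicate 2 it was 0.15 and did not, and on values as deposited it was 0.0075. The upstream peak of Timp2 (chr11:118360301-118367100) had 253 and 384 in the old and 400 and 405 in the young samples. Scaled values overlapped, at -0.080 (SE 0.13, limma adjusted p = 0.812). Timp2 is on chromosome 11 as well, and the part of that chromosome's shift in old replicate 2 was not tested. Timp4, within Syn2, had a weak promoter peak (chr6:115251401-115252500) with 6.64 and 11.4 in the old and 12.0 and 15.3 in the young samples. These overlapped after scaling, at -0.32 (SE 0.31, limma adjusted p = 0.644), and its exon peak was at 0.24.

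Genes that work with these enzymes were taken from a list of 23 activators, receptors, further inhibitors and relatives, and all 23 had peaks, 219 in total. limma called 0 of them at an adjusted p of 0.01, with 35 at an unadjusted p under 0.05 (16.0%, against 16.4% of all peaks). At an adjusted p of 0.05, 5 were lower (2.28%, against 0.771% of all peaks) and 0 higher (against 0.351%), among them peaks at Pcsk5, a proprotein convertase, and at Adamtsl1 and Adamtsl3. Timp1, left out of the set because it is X-linked, had 260 and 328 in the old and 408 and 435 in the young samples at its promoter (chrX:20866401-20879600). The old samples were the lower ones, at -0.24 (SE 0.12, limma adjusted p = 0.344). An intron peak of Reck, a membrane-anchored Mmp inhibitor, had 9.79 and 8.91 in the old and 2.83 and 4.76 in the young samples (chr4:43897101-43897700, named after its values were seen). Old was above young there, at 1.38 (SE 0.37, limma adjusted p = 0.0676). Over the list, 128 peaks were lower in old cells (58.4%), the median was -0.074, and old lay below young at 70 (32.0%, against 24.2% of all peaks) and above at 42 (19.2%, against 23.2%).

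Sequence was read for 2 motifs on both strands, TGAGTCA (reverse complement TGACTCA), the letters AP-1 factors bind, and TGTGGTT (reverse complement AACCACA), those RUNX factors bind. AP-1 and RUNX factors are known regulators of collagenase genes in bone. In the central 300 bases, AP-1 letters were present in 11.6% of the 249 peaks and 16.1% of all autosomal peaks, and RUNX letters in 9.64% and 9.91%. The median GC content was 47.0% and 46.7%. Of the set, 46 peaks lay within 1 kb of the start of any protein-coding gene. In their central 300 bases, AP-1 letters were present in 2 (4.35%, against 5.33% of all autosomal promoter peaks). RUNX letters were present in 6 of these 46 (13.0%, against 4.66%). RefSeq promoter windows (250 bases before to 50 after the start, GRCm38) were found for 30 of the 44 genes, 33 windows in all. AP-1 letters stood in 6 of them (18.2%, against 5.26% of 31396 autosomal windows) and RUNX letters in 3 (9.09%, against 5.32%). All 6 belong to the chromosome 9 cluster, at Mmp1b, Mmp3, Mmp7, Mmp10, Mmp12 and Mmp13, genes related by duplication. Mmp7, Mmp10 and Mmp12 thus carry the letters without a peak in these cells. The windows do not cover every gene or start. AP-1 letters centred at -29 relative to the start of Mmp19, on chromosome 10, are not among their matches.

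Promoter stretches that end just before the start are printed for Mmp13, Mmp3 and Mmp19, since among the genes fixed by role these had matches nearest before the start. All are given 5′ to 3′ on the strand of the gene in GRCm38, with the motif letters in capitals. For Mmp13 (chr9:7272355-7272513, plus strand) the RUNX letters are centred at -116 and the AP-1 letters at -32 relative to the start. For Mmp3 (chr9:7445736-7445821, plus strand) the AP-1 letters are centred at -43, and for Mmp19 (chr10:128790838-128790909, plus strand) at -29. A match describes the letters only.
Mmp13 promoter: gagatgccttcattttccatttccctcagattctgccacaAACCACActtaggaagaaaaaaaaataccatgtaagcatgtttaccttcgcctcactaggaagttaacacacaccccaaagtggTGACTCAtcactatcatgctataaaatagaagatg
Mmp3 promoter: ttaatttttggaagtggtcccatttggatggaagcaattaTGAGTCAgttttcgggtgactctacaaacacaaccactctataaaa
Mmp19 promoter: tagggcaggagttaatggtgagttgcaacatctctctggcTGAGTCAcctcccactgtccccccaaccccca

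Both Adamts12 intron peaks with opposite differences hold AP-1 letters, and so their stretches are printed side by side, from chr15:11105232-11105318 in the lower peak and chr15:11099073-11099159 in the higher one (both GRCm38, plus strand, AP-1 letters in capitals). The lower Adamts16 intron peak holds RUNX letters 3 times within its 800 bases, printed with those letters in capitals on the minus strand, that of the gene in GRCm38, from chr13:70833462-70833548, chr13:70833139-70833225 and chr13:70832987-70833073. In order along the gene they are centred 8306, 8629 and 8781 bases after its start.
Adamts12 intron, lower in old: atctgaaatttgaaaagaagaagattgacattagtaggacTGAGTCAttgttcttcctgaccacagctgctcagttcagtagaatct
Adamts12 intron, higher in old: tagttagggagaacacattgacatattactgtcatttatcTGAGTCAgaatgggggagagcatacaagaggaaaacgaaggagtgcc
Adamts16 intron, nearest the start: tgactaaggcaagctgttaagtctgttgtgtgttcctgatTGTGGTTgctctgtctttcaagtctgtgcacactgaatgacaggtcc
Adamts16 intron, between the others: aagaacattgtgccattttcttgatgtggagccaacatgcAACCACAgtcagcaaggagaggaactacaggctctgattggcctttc
Adamts16 intron, farthest from the start: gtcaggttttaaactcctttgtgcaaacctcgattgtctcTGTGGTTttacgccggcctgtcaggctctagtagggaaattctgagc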

How the data were processed

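ATAC-seq values of 2 old and 2 young mouse MSC samples were analysed. The submitters' processing notes name Bowtie2, Picard and mm10, while versions, the peak caller and its settings are not given in the sources used here. The authors named the deposited values RPKM, but they were handled as a score, since every value is a whole multiple of 1 step per sample that does not depend on peak width. The samples had RLE factors of 0.813 (old replicate 1), 1.01 (old replicate 2), 1.07 (young replicate 1) and 1.15 (young replicate 2). limma 3.58.1 in R 4.3.3 (lmFit, eBayes with trend and robust moderation) was fitted to log2(scaled value + 1) over all 117282 peaks, with Benjamini-Hochberg adjustment and a threshold of 0.01. The step was tested on simulated data, but the outcome is not given here and no result rests on it. Summaries used pandas 2.3.3, numpy 2.4.6, scipy 1.17.1 and pysam 0.24.0 in Python 3.11.15. Genes and exons came from GENCODE vM21, and sequences from the GRCm38 genome and the RefSeq promoter table for GRCm38.p6.

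Peaks were named by rule: those with an adjusted p under 0.05, in each direction the 5 with the largest log2 fold change among peaks with a mean value of at least 10 and groups that do not overlap, the strongest promoter peak (or else the strongest peak) of 16 genes fixed by role, and the 5 with the highest value per kb. Any further peak given with a value of its own was chosen after its values were seen. A result at 1 gene of the list of partner genes is not reported here. Peaks and lists were chosen with earlier results of these data known. Alternatives covered scaling, pseudocount, a filter on low values, the peaks taken for a gene, moderation, threshold, a replicate block, limma-voom and each sample left out. The labels do not say whether samples come from separate animals, so p-values measure only the spread between these samples, which may be technical.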

Additional observations from a re-analysis of the deposited data

How the results depend on the processing

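The settings below were changed 1 at a time, and the cause of the changes was not tested unless the setting itself makes them. The planned quasi-likelihood test on recovered counts was not run; limma-voom on the same counts was. Where a sample was left out, the lone sample of its group is assumed to vary like the other group.

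Against 0 lower and 0 higher peaks, limma called 3 lower and 0 higher on values as deposited, 3 lower and 0 higher with the replicate block, and 2 lower and 0 higher at an adjusted p of 0.05. Leaving out a sample gave 0 to 14 lower and 0 to 3 higher, the high ends without old replicate 1, and 0 and 0 without either young sample, fits that called few peaks anywhere (0.000853% of all peaks lower and 0.00597% higher without young replicate 1, and 0 and 0 without young replicate 2). Equal total signal, quantile normalization, both other pseudocounts, the filter, plain moderation, limma-voom and both narrower choices of peaks gave 0 and 0. Of all peaks tested, these settings called 0% to 0.0810% lower and 0% to 0.0418% higher, with 0 of either under plain moderation, so that a 0 there says nothing about the set. Across peaks, the deviations of same-numbered old and young samples from the mean of each group correlated at -0.0993 after scaling, which gives little reason to pair them.

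The median log2 fold change of -0.059 was -0.33 on values as deposited, where that of all peaks was -0.27, and -0.032 for promoter peaks alone, with -0.095 to -0.033 when a sample was left out. The share of lower peaks, 59.4%, was 81.5% as deposited, 55.0% under quantile normalization, 60.8% with the filter and 55.0% to 58.2% with a sample left out. Old lay below young at 125 peaks as deposited (50.2%, against 43.5% of all peaks) and above at 10 (4.02%, against 7.56%), and after scaling at 6 and 4 of the 39 promoter peaks (15.4% and 10.3%, against 25.7% and 15.7% of all promoter peaks). The log2 ratio of summed values, -0.31 as deposited, was -0.032 with RLE factors and -0.012 as a share of autosomal peaks.

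Of 310 values for the 31 named peaks under alternatives, 28 changed sign, and 17 peaks kept their direction in all. On values as deposited, where the offset of all peaks enters, the log2 fold change became -0.062 at Mmp3, -0.23 at Mmp14, -0.17 at Mmp11, -0.15 at Mmp23, -0.28 at the Adamts2 promoter and -0.22 at the Mmp2 exon peak. Quantile normalization gave 0.025 at Adamts4, 0.034 at the Adamts5 promoter and 0.027 at the Adamts12 promoter. Equal total signal gave 0.0049 at the Adamts5 promoter and 0.015 at Timp3. With a sample left out, values ran from -0.30 to 0.24 at Mmp9, -0.068 to 0.19 at Mmp14, -0.033 to 0.32 at Mmp23, -0.12 to 0.14 at the Adamts2 promoter, -0.11 to 0.058 at Adamts4, -0.048 to 0.023 at the Adamts5 promoter and -0.092 to 0.044 at the Adamts12 promoter. They ran from -0.055 to 0.037 at the wide Timp3 peak, -0.21 to 0.062 at the Timp2 upstream peak, -0.28 to 0.088 at the Adamts16 peak from 70818401 and -0.20 to 0.13 at the Adamts13 end peak. Without a change of sign, they ran from -0.78 to -0.081 at Mmp13, -0.35 to -0.094 at the Mmp2 promoter, 0.017 to 0.42 at Mmp3, 0.18 to 1.21 at Adamts14, -2.17 to -0.90 at the Adamts5 end peak, 0.15 to 0.45 at the wide Timp2 peak and -0.52 to -0.12 at Timp4. Likewise they ran from 0.034 to 0.087 at the Mmp2 exon peak, 0.045 to 0.20 at Mmp11, 0.27 to 0.91 at the Adamts2 intron peak, 0.36 to 0.85 at the Adamts18 intron peak and -0.42 to -0.16 at the Adamts16 peak from 70788201. At weak peaks depth limits the fold change, since 3 counts correspond to a value of about 1.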
